A study of Mus musculus with 4 samples.

Results

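The 37 genes described here belong to the machinery of DNA replication and mitosis, and were read out in cultured mouse dendritic cells. They were taken by gene symbol from the annotated tables, which list 13685 genes between them, and were parted by function into 17 S-phase genes and 20 mitotic genes. Of the 37, 35 stood in at least 1 table and 30 had a value in all 4 libraries. Ccnb2, a B-type cyclin, and Cenpf, a kinetochore protein, were in no table.

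Dendritic cells were grown from bone marrow of C57BL/6 mice aged 4 weeks, for 7 days with IL-4 and GM-CSF at 10 ng/ml each. These cytokines are common to all groups, so every library comes from a GM-CSF and IL-4 culture. The groups received CAF culture medium mixed beforehand with a Wnt2 antibody (CAF.CM + Wnt2 antibody), that medium alone (CAF.CM), Wnt2, which is a secreted WNT ligand, or control medium. Neither the dose, nor the length of treatment, nor the number of mice is stated in the labels.

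Proliferating cells copy their DNA in S phase and divide it in mitosis, and the genes for these steps are largely silent in resting cells. E2F factors switch on S-phase genes such as the MCM helicase and PCNA, while the DREAM and MuvB complexes, acting through CHR elements and NF-Y boxes, time the mitotic genes. In GM-CSF cultures of mouse bone marrow, progenitors divide as they mature into cells with features of dendritic cells and macrophages.

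Levels are in CPM, the authors' library-scaled read counts, and 1 sequenced read was worth 0.0431 CPM with CAF.CM + Wnt2 antibody, 0.0384 CPM with CAF.CM, 0.00651 CPM with Wnt2 and 0.00706 CPM in control medium. The libraries held 22791494 (CAF.CM + Wnt2 antibody), 25225220 (CAF.CM), 154399767 (Wnt2) and 143071376 (control medium) reads in listed genes. Each group has 1 column, treated as 1 library although the series text speaks of triplicates, so no spread between cultures can be estimated and no test was made. Intervals given with log2 ratios are 95% exact conditional binomial intervals and cover counting error only. The shares of all genes with intervals clear of 0 or of 2-fold are not given here. Counts of such intervals are therefore not read as a result about the members. A gene was called at 2-fold. Each table lists a gene only where the higher of its libraries reached about 1 CPM, so a gene near that level is listed only through its higher library and had to differ. Most dendritic cell markers were listed: 11 of 13 had values in all 4 libraries, with a summed level of 1575 CPM with CAF.CM + Wnt2 antibody, 1730 CPM with CAF.CM, 761.6 CPM with Wnt2 and 3379 CPM in control medium, while Cd209a was not listed. For CAF.CM over control medium 8 of the 11 lay below 0 and 3 above, and likewise for CAF.CM + Wnt2 antibody. Over all listed genes 46.7% and 46.4% lay above 0 for these pairs. Itgax had 30.3 CPM with CAF.CM + Wnt2 antibody, 47.7 CPM with CAF.CM and 887.6 CPM in control medium. Ciita had 1.85, 6.11 and 30.3 CPM in the same order. Macrophage and monocyte markers (13 of 14) summed to 6700.2 CPM with CAF.CM + Wnt2 antibody, 9662 CPM with CAF.CM, 21166 CPM with Wnt2 and 29518 CPM in control medium. They did not all fall. Over control medium 4 of 14 lay above 0 and 10 below with CAF.CM, and 2 of 13 above and 11 below with CAF.CM + Wnt2 antibody.

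Promoter windows from RefSeq (GRCm38.p6, 250 bases before to 50 after the start) were found for 31 members, with 34 windows. They were searched on both strands for the E2F words TTTCGCGC, TTTGGCGC, TTTCCCGC and TTTGCCGC, the CHR words TTTGAA and TTCGAA, and the NF-Y word CCAAT. For each class 2 windows are printed, chosen by how many of the 3 kinds of word they held and, among ties, by the gene's reads. Capitals mark the matches on either strand, so that ATTGG is CCAAT read from the other strand. Mcm7 and Mcm6 encode subunits of the replicative helicase, Cdk1 the kinase that drives entry into mitosis, and Mki67 the Ki-67 protein of dividing cells' chromosomes.
Mcm7 (S phase, chr5:138171834-138172133, minus strand): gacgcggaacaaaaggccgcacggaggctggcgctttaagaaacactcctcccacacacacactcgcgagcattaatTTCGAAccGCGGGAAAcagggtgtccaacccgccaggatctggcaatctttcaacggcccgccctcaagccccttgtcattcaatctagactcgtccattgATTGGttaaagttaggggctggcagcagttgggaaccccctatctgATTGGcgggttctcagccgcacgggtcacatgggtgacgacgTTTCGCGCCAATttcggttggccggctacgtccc
Mcm6 (S phase, chr1:128359656-128359955, minus strand): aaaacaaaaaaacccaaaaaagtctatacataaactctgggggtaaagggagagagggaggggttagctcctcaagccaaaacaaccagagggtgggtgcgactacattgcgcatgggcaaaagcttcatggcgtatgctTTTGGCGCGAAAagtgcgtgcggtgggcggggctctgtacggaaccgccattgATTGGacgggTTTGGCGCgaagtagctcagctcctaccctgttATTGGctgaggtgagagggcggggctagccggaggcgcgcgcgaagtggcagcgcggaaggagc
Cdk1 (mitosis, chr10:69352863-69353162, minus strand): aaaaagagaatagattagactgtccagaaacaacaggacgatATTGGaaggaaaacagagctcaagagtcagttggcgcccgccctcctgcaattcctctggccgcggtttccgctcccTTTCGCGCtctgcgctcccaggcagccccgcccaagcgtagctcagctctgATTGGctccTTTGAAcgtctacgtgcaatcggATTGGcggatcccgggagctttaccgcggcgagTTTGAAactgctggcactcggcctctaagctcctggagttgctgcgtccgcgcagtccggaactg
Mki67 (mitosis, chr7:135716330-135716629, minus strand): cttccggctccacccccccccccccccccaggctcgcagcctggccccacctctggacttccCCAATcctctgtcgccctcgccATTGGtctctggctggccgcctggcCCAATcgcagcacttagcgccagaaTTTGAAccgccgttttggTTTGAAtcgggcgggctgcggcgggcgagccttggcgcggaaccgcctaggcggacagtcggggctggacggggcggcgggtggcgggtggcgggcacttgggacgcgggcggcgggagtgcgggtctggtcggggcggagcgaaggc

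The classes differed in these words. CHR words stood in 12 of 16 mitotic windows (75%) and in 3 of 18 S-phase windows (16.7%), against 19.2% of all 32851 windows of the table. E2F words showed the opposite order, with 1 of 16 mitotic windows (6.25%) and 7 of 18 S-phase windows (38.9%), against 2.27% of all windows. CCAAT was held by 14 mitotic windows (87.5%) and 12 S-phase windows (66.7%), against 37.4% of all. All 12 mitotic windows with a CHR word also held CCAAT (75%), against 3 S-phase windows (16.7%) and 7.53% of all.

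In the printed windows Cdk1 holds 2 CHR words, 71 and 15 bases before the start, and the only E2F match among the mitotic windows, 131 bases before the start. In Mki67 the CHR words lie 116 and 98 bases before the start. Mcm6 holds 3 E2F matches, 110, 106 and 47 bases before the start, of which the first pair overlap. Mcm7 carries E2F matches on both sides of its start. Its match after the start shares 1 letter with a CCAAT, the only overlap of different kinds of word in the members' windows. The 16 mitotic and 18 S-phase windows had median GC contents of 58.3% and 57.5%, against 52.7% for all windows. A match is a run of letters and says nothing of binding in these cells.

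**Figure D1:**
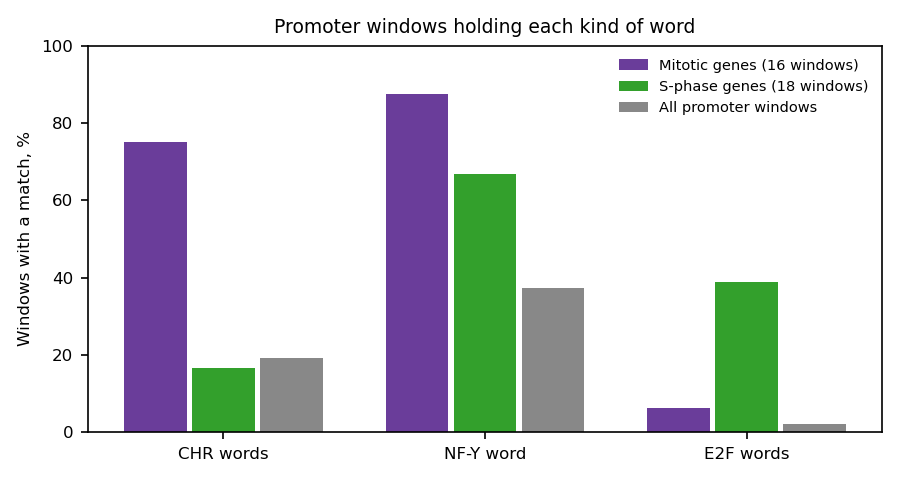
Share of promoter windows (%) holding CHR, NF-Y or E2F words, for 16 mitotic windows, 18 S-phase windows and all 32851 windows of the RefSeq table. CHR words stand in 75% of mitotic windows and E2F words in 38.9% of S-phase windows.

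Among the S-phase genes, Pcna fell in every treated library relative to control medium and was the only gene of its class to fall past 2-fold, while Cdc6 rose past 2-fold in both CAF.CM libraries. Over all listed genes, 2.93% passed 2-fold lower for Wnt2 over control medium, 8.69% for CAF.CM over control medium and 12.6% for CAF.CM + Wnt2 antibody over control medium, and 6.68% and 8.10% passed higher for the CAF.CM pair and the antibody pair. The other 15 S-phase genes stayed within 2-fold in every comparison. In bulk RNA, a change in the number of dividing cells and a change in RNA per cell cannot be told apart. Pcna (chr2:132249162-132253314), the sliding clamp that holds DNA polymerases on the template, had 47.4 CPM with CAF.CM + Wnt2 antibody, 46.2 CPM with CAF.CM, 52.4 CPM with Wnt2 and 119.5 CPM in control medium. The log2 ratio was -1.19 (-1.23 to -1.15) for Wnt2 over control medium, -1.37 (-1.46 to -1.29) for CAF.CM over control medium, and 0.04 (-0.08 to 0.16) for CAF.CM + Wnt2 antibody over CAF.CM. The 3 treated libraries thus lay close together, and control medium stood apart. Per kilobase of exon Pcna was the highest of the 17 in every library, at 19.8 CPM per kb with CAF.CM + Wnt2 antibody, 19.2 with CAF.CM, 21.8 with Wnt2 and 49.8 in control medium. A share of 38% of the 31-base words of its longest transcript also occurs in other genes, Pcna-ps2 and Gm29809, so its level is uncertain where reads were divided among them.

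Helicase genes came next. The MCM ring, built from Mcm2 to Mcm7, unwinds DNA at the fork together with Cdc45 and the GINS complex, of which Gins2 is a part. Mcm6 (chr1:128331590-128359664) had 16.7 CPM with CAF.CM + Wnt2 antibody, 16.8 CPM with CAF.CM, 15.2 CPM with Wnt2 and 19.4 CPM in control medium, a range within 1.5-fold. Mcm4 (chr16:15623897-15637400) had 20.2 CPM with CAF.CM + Wnt2 antibody, 18.8 CPM with CAF.CM, 14.2 CPM with Wnt2 and 16.1 CPM in control medium. Mcm4 thus ran slightly higher in the CAF.CM libraries, and Mcm6 slightly lower in all treated libraries than in control medium.

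Mcm5 (chr8:75109569-75128439) had 1.51 CPM with CAF.CM + Wnt2 antibody, 1.65 CPM with CAF.CM, 1.80 CPM with Wnt2 and 2.88 CPM in control medium, at log2 -0.92 (-1.48 to -0.43) for CAF.CM + Wnt2 antibody over control medium, -0.79 for CAF.CM over control medium and -0.67 for Wnt2 over control medium. Mcm2 (chr6:88883474-88898780) had 8.06 CPM with CAF.CM + Wnt2 antibody, 6.57 CPM with CAF.CM, 8.29 CPM with Wnt2 and 9.81 CPM in control medium. Control medium was the highest library for both, and no ratio reached 2-fold. Of the 8 helicase genes, 2 lay above 0 and 6 below 0 for Wnt2 over control medium, and likewise 2 above and 6 below for CAF.CM over control medium. Over all genes 47.0% and 46.7% lay above 0 in these comparisons. Mcm7 was above 0 in both, with 13.3 CPM with CAF.CM + Wnt2 antibody, 12.4 CPM with CAF.CM, 15.9 CPM with Wnt2 and 11.6 CPM in control medium, but 37.6% of its words are shared with Gm5487. Gins2, at 10.5 to 12.3 CPM in the 4 libraries, overlaps the opposite-strand gene Gse1 over 67.3% of its exons, and the labels do not say whether reads were counted by strand.

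Loading of the helicase needs Cdc6, which marks origins before S phase. Cdc6 (chr11:98907801-98923940) had 2.89 CPM with CAF.CM + Wnt2 antibody, 2.50 CPM with CAF.CM, 1.00 CPM with Wnt2 and 0.982 CPM in control medium. The CAF.CM libraries were high and the others low. The log2 ratio was 1.33 (0.90 to 1.78) for CAF.CM over control medium, 1.53 (1.11 to 1.99) for CAF.CM + Wnt2 antibody over control medium, 0.20 (-0.30 to 0.72) for CAF.CM + Wnt2 antibody over CAF.CM and 0.03 (-0.31 to 0.37) for Wnt2 over control medium. It rested on 67 reads with CAF.CM + Wnt2 antibody, 65 with CAF.CM, 154 with Wnt2 and 139 in control medium, and was under 1 CPM in control medium, so it was listed in the CAF.CM table only through the treated library.

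Nucleotide supply showed little movement. Rrm1 (chr7:102441695-102469771), the large subunit of ribonucleotide reductase, had 20.6 CPM with CAF.CM + Wnt2 antibody, 19.2 CPM with CAF.CM, 18.8 CPM with Wnt2 and 19.0 CPM in control medium. Rrm2 (chr12:24708241-24714146), its small and cell-cycle-controlled subunit, had 1.12 CPM with CAF.CM + Wnt2 antibody, 1.19 CPM with CAF.CM, 0.703 CPM with Wnt2 and 1.15 CPM in control medium, on 26 to 162 reads. Wnt2 was the low library for Rrm2, at log2 -0.69 (-1.07 to -0.34) over control medium. Tyms, which makes thymidylate, had 3.45 CPM with CAF.CM + Wnt2 antibody, 3.73 CPM with CAF.CM, 2.23 CPM with Wnt2 and 2.43 CPM in control medium. Rrm2 and Tyms share 15.4% and 15% of their words with other genes. The sign of Rrm1 for Wnt2 over control medium (-0.01) turned under other scalings, as did that of Rrm2 for CAF.CM + Wnt2 antibody over control medium (-0.03).

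Polymerase and ligase genes stayed within 2-fold. Pola1 (chrX:93304767-93632155), the catalytic subunit of the primase-associated polymerase, had 8.49 CPM with CAF.CM + Wnt2 antibody, 10.3 CPM with CAF.CM, 12.1 CPM with Wnt2 and 15.4 CPM in control medium, stepping up across that order, with a log2 ratio of -0.86 (-1.08 to -0.65) for CAF.CM + Wnt2 antibody over control medium. Its partner Prim1 lay between 2.37 and 2.88 CPM, and Lig1, which seals Okazaki fragments, between 10.7 and 12.8 CPM. E2f1 (chr2:154559407-154569892), the transcription factor upstream of many of these genes, had 17.2 CPM with CAF.CM + Wnt2 antibody, 20.7 CPM with CAF.CM, 23.7 CPM with Wnt2 and 14.1 CPM in control medium. E2f1 was higher in every treated library than in control medium, at log2 0.28 (0.12 to 0.44) for CAF.CM + Wnt2 antibody, 0.56 (0.42 to 0.70) for CAF.CM and 0.75 (0.67 to 0.83) for Wnt2, none past 2-fold.

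**Figure D2:**
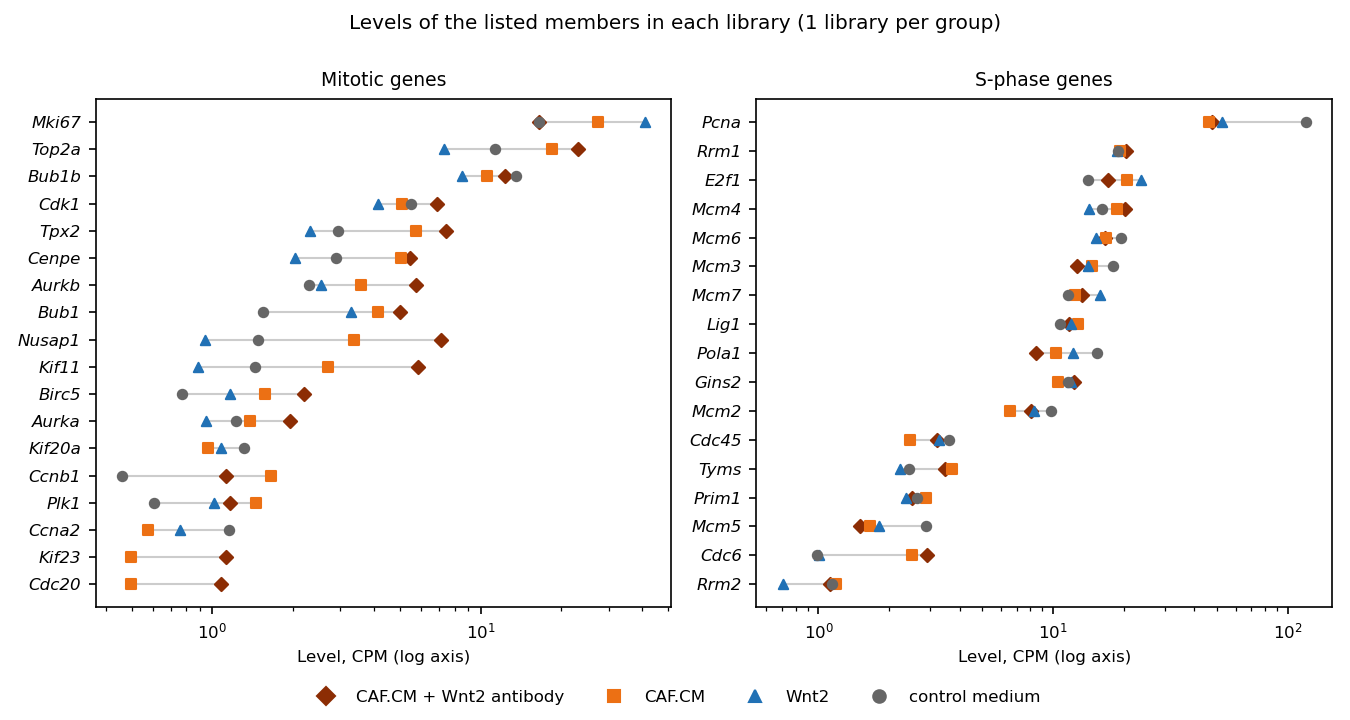
Level of each listed member in CPM (log axis), mitotic genes on the left and S-phase genes on the right, with 1 point per library. Pcna in control medium (119.5 CPM) and Mki67 with Wnt2 (41.0 CPM) stand apart, and most other mitotic genes are highest with CAF.CM + Wnt2 antibody.

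Mitotic genes moved more, and not all together. Mki67 and Bub1 rose past 2-fold with Wnt2, as did 2.87% of all genes. The 4 listed spindle genes lay lower with Wnt2 than in control medium. Of these, Kif11 and Nusap1 were listed only through control medium, so both had to be lower. The interval of Kif20a spanned 0 (-0.60 to 0.03), and Tpx2 lay at log2 -0.35 (-0.56 to -0.14). With CAF.CM 12 of 16 listed mitotic genes had a log2 ratio above 0 over control medium, beside 46.7% of all genes. With CAF.CM + Wnt2 antibody 13 of 16 were above 0 over CAF.CM, beside 45.2% of all genes, and Mki67, Ccnb1 and Plk1 were below.

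Mki67 (chr7:135689784-135716361) had 16.5 CPM with CAF.CM + Wnt2 antibody, 27.5 CPM with CAF.CM, 41.0 CPM with Wnt2 and 16.6 CPM in control medium. The log2 ratio was 1.31 (1.24 to 1.38) for Wnt2 over control medium, 0.73 (0.61 to 0.85) for CAF.CM over control medium and -0.73 (-0.92 to -0.55) for CAF.CM + Wnt2 antibody over CAF.CM. Wnt2 was the high library, and CAF.CM + Wnt2 antibody and control medium were nearly equal, at log2 -0.01 (-0.17 to 0.15), a value whose sign turned under other scalings. Top2a (chr11:98992943-99024189), the topoisomerase that untangles chromosomes, had 23.1 CPM with CAF.CM + Wnt2 antibody, 18.5 CPM with CAF.CM, 7.30 CPM with Wnt2 and 11.3 CPM in control medium. It was lowest with Wnt2, at log2 -0.63 (-0.74 to -0.52) over control medium, 0.71 for CAF.CM over control medium, and past 2-fold at 1.03 (0.89 to 1.17) for CAF.CM + Wnt2 antibody over control medium. Mki67 and Top2a are both widely used as labels of dividing cells, and the Wnt2 library was the highest for Mki67 and the lowest for Top2a, while both were higher with CAF.CM than in control medium.

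Checkpoint genes also parted. Bub1 (chr2:127801122-127831865), a spindle checkpoint kinase, had 5.00 CPM with CAF.CM + Wnt2 antibody, 4.15 CPM with CAF.CM, 3.29 CPM with Wnt2 and 1.55 CPM in control medium. It was the 1 mitotic gene past 2-fold in each treated library over control medium, with log2 ratios of 1.68 (1.35 to 2.02) for CAF.CM + Wnt2 antibody, 1.41 (1.08 to 1.76) for CAF.CM and 1.08 (0.86 to 1.32) for Wnt2. Bub1b (chr2:118598211-118641591), which encodes the BUBR1 subunit of the same checkpoint, had 12.3 CPM with CAF.CM + Wnt2 antibody, 10.6 CPM with CAF.CM, 8.55 CPM with Wnt2 and 13.6 CPM in control medium. Control medium was the highest library for Bub1b and the lowest for Bub1. Cdc20, the activator of the anaphase-promoting complex, was listed only beside the antibody, at 1.08 CPM with CAF.CM + Wnt2 antibody and 0.499 CPM with CAF.CM, on 25 and 13 reads. A share of 27.4% of its words also occurs in other genes.

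Spindle genes included the members farthest above control medium in the antibody library. Nusap1 (chr2:119618298-119651244), a spindle microtubule protein, had 7.11 CPM with CAF.CM + Wnt2 antibody, 3.38 CPM with CAF.CM, 0.937 CPM with Wnt2 and 1.48 CPM in control medium. Kif11 (chr19:37376403-37421859), the kinesin that pushes spindle poles apart, had 5.86 CPM with CAF.CM + Wnt2 antibody, 2.69 CPM with CAF.CM, 0.885 CPM with Wnt2 and 1.44 CPM in control medium. In both the antibody library was highest and Wnt2 lowest.

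For Nusap1 the log2 ratio was 1.06 (0.69 to 1.46) for CAF.CM + Wnt2 antibody over CAF.CM, 1.17 (0.81 to 1.55) for CAF.CM over control medium, 2.24 (1.96 to 2.56) for CAF.CM + Wnt2 antibody over control medium and -0.66 (-0.98 to -0.35) for Wnt2 over control medium. Kif11 gave 1.101 (0.70 to 1.56), 0.89 (0.49 to 1.30), 2.01 (1.70 to 2.34) and -0.69 (-1.03 to -0.38) for the same 4 ratios. These were the 2 largest ratios of the mitotic genes for CAF.CM + Wnt2 antibody over control medium. Nusap1 and Kif11 were under 1 CPM with Wnt2, so for Wnt2 they were listed through control medium.

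Tpx2 (chr2:152847964-152895321), which activates Aurora A on the spindle, had 7.46 CPM with CAF.CM + Wnt2 antibody, 5.72 CPM with CAF.CM, 2.31 CPM with Wnt2 and 2.94 CPM in control medium. It passed 2-fold for CAF.CM + Wnt2 antibody over control medium, at log2 1.34 (1.08 to 1.60), and not for CAF.CM over control medium, at 0.96 (0.68 to 1.23). Kif23, a central-spindle kinesin, was listed only in the antibody table, at 1.12 CPM with CAF.CM + Wnt2 antibody and 0.499 CPM with CAF.CM, on 26 and 13 reads. Kif20a, another kinesin of cell cleavage, had 0.96 CPM with CAF.CM, 1.07 CPM with Wnt2 and 1.31 CPM in control medium, and was not listed for the antibody. Its exons overlap those of Cdc23 on the opposite strand over 29.3% of their length.

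Cyclins and kinases were mostly low. Cdk1 (chr10:69335146-69352938) had 6.85 CPM with CAF.CM + Wnt2 antibody, 5.11 CPM with CAF.CM, 4.16 CPM with Wnt2 and 5.49 CPM in control medium, and its ratios stayed within 2-fold, from -0.40 for Wnt2 over control medium to 0.42 for CAF.CM + Wnt2 antibody over CAF.CM on the log2 scale. Aurkb, the kinase of the chromosomal passenger complex, had 5.73 CPM with CAF.CM + Wnt2 antibody, 3.57 CPM with CAF.CM, 2.54 CPM with Wnt2 and 2.29 CPM in control medium, and passed 2-fold only for CAF.CM + Wnt2 antibody over control medium, at log2 1.32 (1.02 to 1.62). Birc5, the survivin subunit of that complex, had 2.20 CPM with CAF.CM + Wnt2 antibody, 1.57 CPM with CAF.CM, 1.17 CPM with Wnt2 and 0.770 CPM in control medium. Both were highest with the antibody and lowest in control medium, and Birc5 was under 1 CPM in control medium.

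Plk1 (chr7:122159439-122169873), a kinase of spindle assembly and mitotic exit, had 1.16 CPM with CAF.CM + Wnt2 antibody, 1.46 CPM with CAF.CM, 1.01 CPM with Wnt2 and 0.608 CPM in control medium, at log2 1.23 (0.67 to 1.83) for CAF.CM over control medium and 0.73 (0.35 to 1.14) for Wnt2 over control medium. A share of 15.2% of the words of Plk1 also occurs in Plk-ps1, which had more CPM than Plk1 in every library, at 1.80 CPM in control medium. Plk1 and Ccnb1 were the listed mitotic genes, beside Mki67, that lay lower with the antibody than with CAF.CM alone. Ccnb1, cyclin B1, had 1.12 CPM with CAF.CM + Wnt2 antibody, 1.65 CPM with CAF.CM and 0.459 CPM in control medium, on 26, 43 and 65 reads, and shared 46.9% of its words with pseudogenes. Its log2 ratio was 1.79 (1.26 to 2.42) for CAF.CM over control medium and -0.53 (-1.32 to 0.18) for CAF.CM + Wnt2 antibody over CAF.CM.

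Ccna2, cyclin A2, went the other way from Ccnb1, with 0.576 CPM with CAF.CM, 0.755 CPM with Wnt2 and 1.15 CPM in control medium, on 15, 116 and 163 reads. Its exons overlap those of Exosc9 on the opposite strand over 12.5% of their length. Aurka, the spindle-pole kinase, ran from 0.95 to 1.94 CPM and stayed within 2-fold in every comparison. Cenpe, a kinetochore motor, had 5.47 CPM with CAF.CM + Wnt2 antibody, 5.03 CPM with CAF.CM, 2.03 CPM with Wnt2 and 2.88 CPM in control medium, higher in both CAF.CM libraries but within 2-fold.

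**Figure D3:**
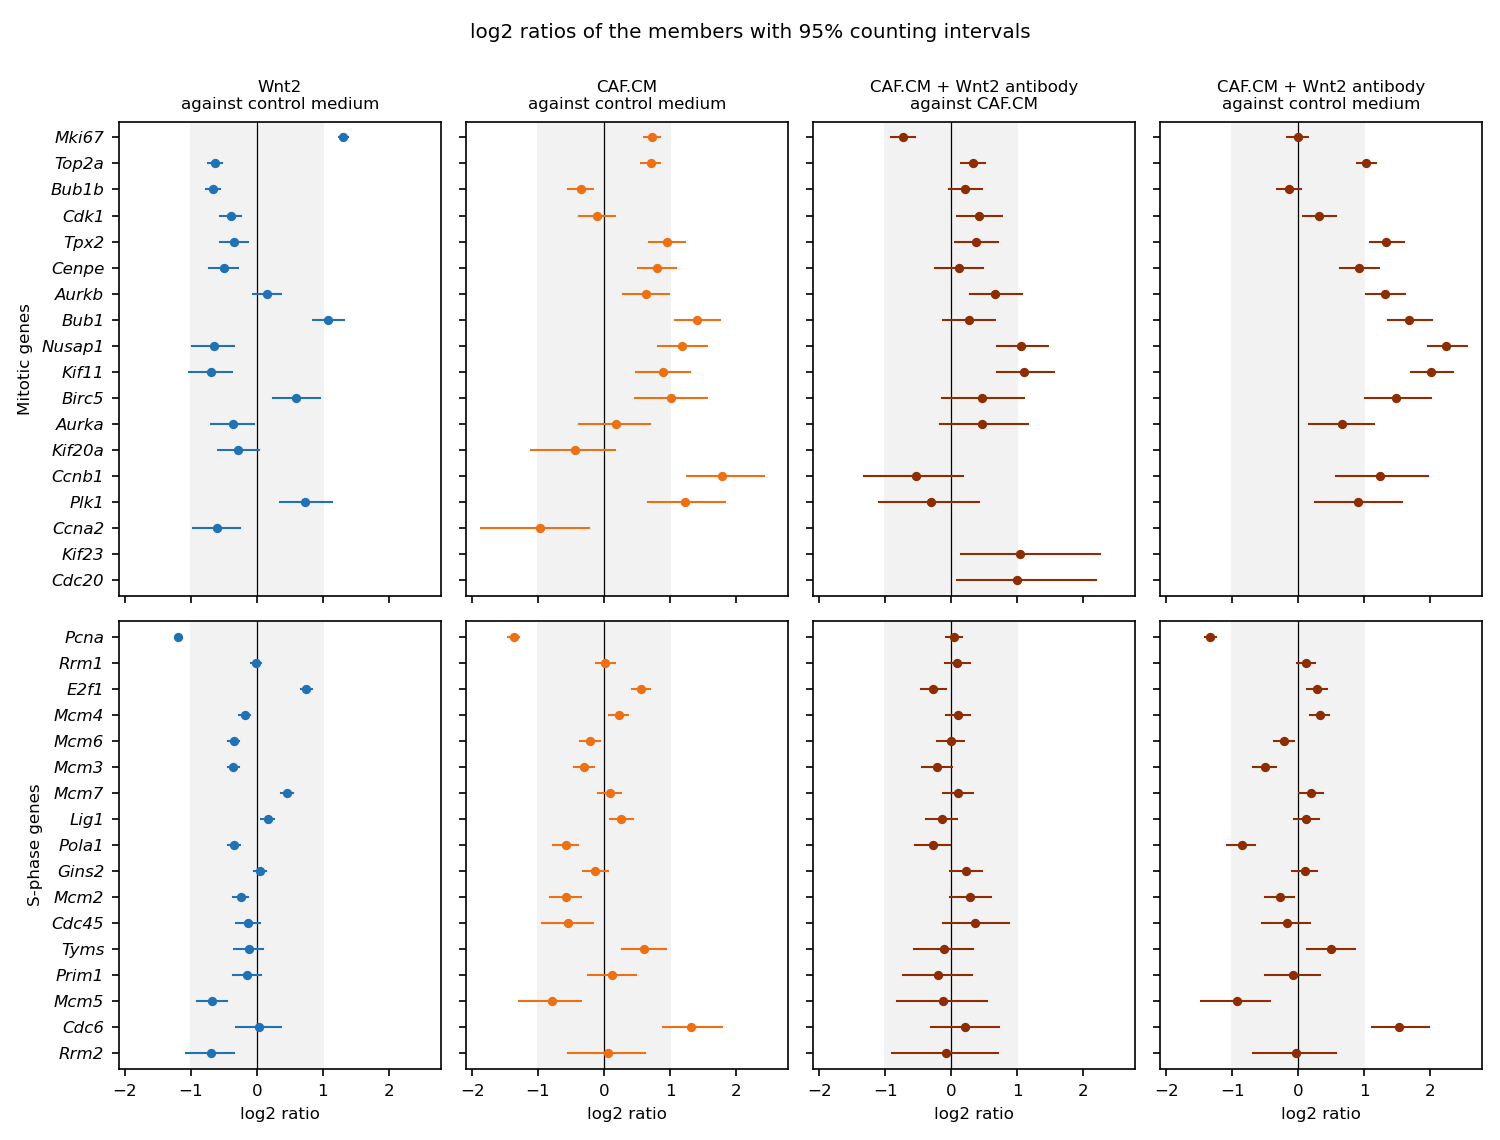
log2 ratio of each listed member (points) with its 95% counting interval (lines) in the 4 comparisons, mitotic genes above and S-phase genes below, with the range within 2-fold shaded. For CAF.CM + Wnt2 antibody over control medium 8 of 14 mitotic genes lie past 2-fold higher, beside 8.10% of all genes. Nusap1 (2.24) and Kif11 (2.01) lie farthest out. Of the 11 with at least 1 CPM in both libraries 6 lie past 2-fold higher, and the share of all genes under that minimum is not given.

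The question behind the Wnt2 library is which genes the ligand alters. For Wnt2 over control medium, 15 of 20 mitotic members were listed, and 2 of them, Mki67 and Bub1, passed 2-fold higher and 0 passed lower. Over all 13120 genes listed, 2.87% passed 2-fold higher and 2.93% lower. Of the 17 S-phase members, all listed, 0 passed higher and 1, Pcna, passed lower. The median log2 ratio was -0.36 for the 15 mitotic members and -0.15 for the 17 S-phase members, beside -0.02 for all genes. The counting interval lay above 0 for 4 mitotic members, below 0 for 9 and spanned 0 for 2. So the median mitotic member was lower with Wnt2 while Mki67, Bub1, Plk1 and Birc5 were higher. The 42 other mitosis genes listed for this pair, described below, did not share the lower median, at -0.0009. Plk1 and Birc5 were listed through the Wnt2 library, and Aurka, Kif11, Nusap1 and Ccna2 through control medium.

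For CAF.CM over control medium, 5 of 16 listed mitotic members passed 2-fold higher (Bub1, Ccnb1, Plk1, Nusap1 and Birc5) and 0 lower. The share over all 13329 genes was 6.68% higher and 8.69% lower. Among the 17 S-phase members 1 passed higher, Cdc6, and 1 lower, Pcna. Mitotic members had a median log2 ratio of 0.76, with 11 intervals above 0, 2 below and 3 spanning 0. The S-phase median was 0.02 and that of all genes -0.04. Ccnb1, Plk1 and Birc5 were under 1 CPM in control medium, so they were listed through the CAF.CM library. Birc5 and Tpx2, at 1.01 and 0.96, lay next to the threshold, and another prior count or scaling moved each across it. Among the 11 mitotic members with at least 1 CPM in both libraries, 2 passed 2-fold, Bub1 and Nusap1, and the median was 0.73. The share of all genes under that minimum is not given here. This comparison and that for Wnt2 share the control library, so their values are only set side by side.

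Adding the antibody asks which part of the CAF.CM profile depends on Wnt2. For CAF.CM + Wnt2 antibody over CAF.CM, 3 of 16 listed mitotic members passed 2-fold higher (Kif11, Nusap1 and Kif23) and 0 lower, while over all 13072 genes 1.02% passed higher and 3.65% lower. The intervals lay above 0 for 8, below 0 for 1, which was Mki67, and spanned 0 for 7. Kif23 rested on 26 and 13 reads and was listed through the antibody library. Kif23 at 1.05 and Cdc20 at 1.00 lay next to the threshold and crossed it under other prior counts, and Cdc20 also under other scalings. No S-phase member passed 2-fold in either direction, and 15 of 17 intervals spanned 0. Median log2 ratios were 0.40 for mitotic members, -0.01 for S-phase members and -0.04 for all genes, and the sign of the S-phase median turned under other scalings.

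The antibody library was also set against control medium, a pair the authors did not tabulate. Of 14 mitotic members listed for both, 8 passed 2-fold higher and 0 lower, beside 8.10% and 12.6% of all 12882 genes. The 8 were Bub1, Top2a, Ccnb1, Aurkb, Kif11, Nusap1, Tpx2 and Birc5, and for 6 of them the whole counting interval lay at 2-fold or beyond. Their class had a median log2 ratio of 1.14, against -0.03 for the 17 S-phase members and -0.06 for all genes. Ccnb1, Plk1 and Birc5 were under 1 CPM in control medium and were listed through the antibody library. Kif20a and Ccna2, at 1.31 and 1.15 CPM in control medium, had no antibody value. A gene under about 1 CPM in both CAF.CM libraries drops out of this pair, so such genes could not be counted as lower. Among the 11 mitotic members with at least 1 CPM in both libraries, 6 passed 2-fold higher, and the median was 1.03. The share of all genes under that minimum is again not given. In the S-phase class 1 gene, Cdc6, which was also under 1 CPM in control medium, passed higher and 1, Pcna, lower.

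Taken over the genes listed in all 4 libraries, the 13 mitotic members summed to 100.8 CPM with CAF.CM + Wnt2 antibody, 90.6 CPM with CAF.CM, 76.2 CPM with Wnt2 and 62.1 CPM in control medium. Per kilobase of exon their median level was 1.39 CPM per kb with CAF.CM + Wnt2 antibody, 0.953 with CAF.CM, 0.494 with Wnt2 and 0.483 in control medium. The 17 S-phase members summed to 203.1 CPM with CAF.CM + Wnt2 antibody, 203.5 CPM with CAF.CM, 209.9 CPM with Wnt2 and 278.9 CPM in control medium, with medians of 1.87 CPM per kb with CAF.CM + Wnt2 antibody, 1.75 with CAF.CM, 1.71 with Wnt2 and 1.75 in control medium. The mitotic level was thus highest in the antibody library on both measures, and the S-phase median was nearly level. Mki67 alone gave 41.0 CPM of the mitotic sum with Wnt2, and without it, a choice made after seeing the data, the other 12 summed to 84.2 CPM with CAF.CM + Wnt2 antibody, 63.1 CPM with CAF.CM, 35.1 CPM with Wnt2 and 45.5 CPM in control medium, so that Wnt2 lay below control medium. Pcna alone gave 119.5 CPM of the S-phase sum in control medium. The mitotic median minus the S-phase median of the log2 ratios was -0.21 for Wnt2 over control medium, 0.74 for CAF.CM over control medium, 1.17 for CAF.CM + Wnt2 antibody over control medium and 0.41 for that library over CAF.CM alone. Choosing another scaling of the libraries shifts both medians together and left these differences at the same 2 decimals.

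**Figure D4:**
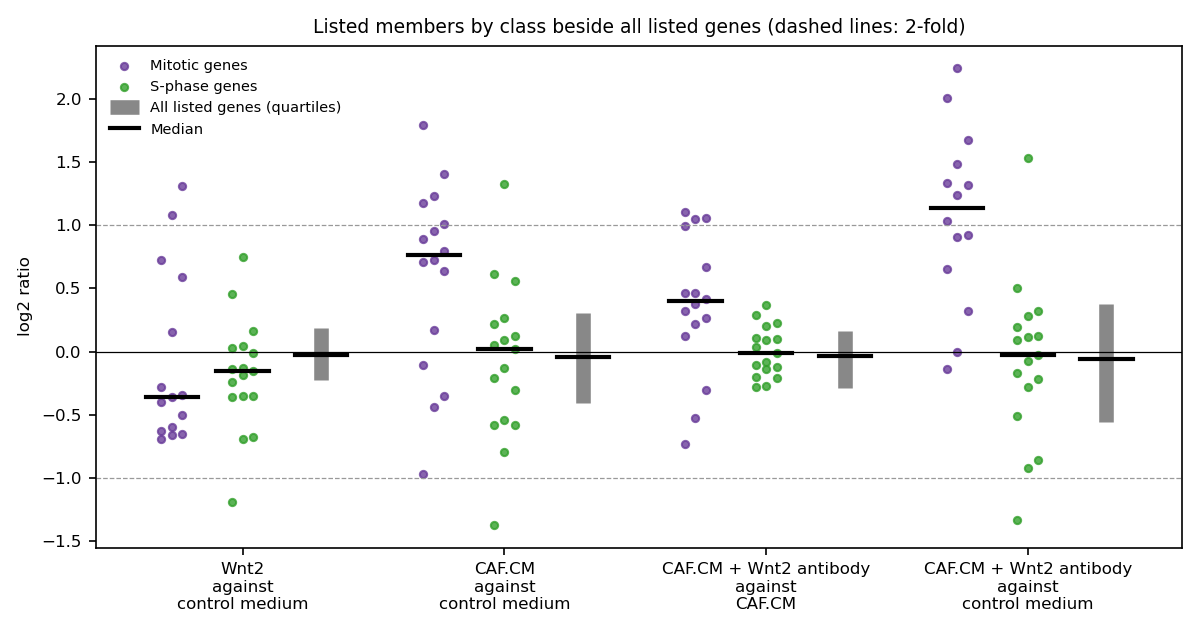
log2 ratios of the listed members in the 4 comparisons, each point a gene, mitotic genes left and S-phase genes right in each group, with medians as black bars, quartiles of all listed genes as grey boxes and 2-fold as dashed lines. The mitotic median lies below 0 for Wnt2 (-0.36) and above 0 in the other comparisons (0.76, 0.40 and 1.14), while the S-phase medians lie between -0.15 and 0.02.

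The libraries with more mitotic RNA also differed in other ways. Fibroblast markers listed in all 4 libraries (5 of 12) summed to 66.8 CPM with CAF.CM + Wnt2 antibody, 41.1 CPM with CAF.CM, 14.3 CPM with Wnt2 and 12.004 CPM in control medium. Most of this was Col5a1 and Dcn, and for CAF.CM + Wnt2 antibody over control medium these 2 lay above 0 and the other 3 below. Their log2 ratios were 3.26 for Col5a1 and 4.71 for Dcn, against -0.39 for Pdgfrb, -0.79 for Acta2 and -1.59 for Thy1, and the median of the 5 was -0.39. Of the defining fibroblast genes, Col1a1, Pdgfra, Lum and Fap were not listed in any table. Haematopoietic progenitor markers (4 of 8) summed to 19.2 CPM with CAF.CM + Wnt2 antibody, 23.7 CPM with CAF.CM, 42.8 CPM with Wnt2 and 34.3 CPM in control medium. These 4 did not move together. For CAF.CM + Wnt2 antibody over control medium 2 lay below 0, Gata2 (log2 -2.90) and Cd34 (-1.28). The other 2 lay above 0, Sox4 (0.40) and Meis1 (0.01). Neutrophil precursor markers (3 of 12, mostly Mmp8) summed to 109.8 CPM with CAF.CM + Wnt2 antibody, 154.8 CPM with CAF.CM, 1526 CPM with Wnt2 and 557.9 CPM in control medium, with Elane and Mpo not listed. Erythroid and megakaryocyte markers (2 of 10, mostly Pf4) summed to 54.5 CPM with CAF.CM + Wnt2 antibody, 63.3 CPM with CAF.CM, 345.3 CPM with Wnt2 and 205.6 CPM in control medium. Of 8 mast cell and 11 lymphocyte markers none was listed for all 4 libraries. The share of reads in protein-coding genes was 72.4% with CAF.CM + Wnt2 antibody, 75.8% with CAF.CM, 80.1% with Wnt2 and 81.2% in control medium. That of Malat1, a nuclear RNA, was 3.86% with CAF.CM + Wnt2 antibody, 2.86% with CAF.CM, 1.76% with Wnt2 and 1.38% in control medium. The part of any of these in the mitotic values was not tested.

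In the authors' deposited table, adjusted p was below 0.05 for 5 of 15 listed mitotic members with Wnt2, beside 15.4% of all genes, for 11 of 16 with CAF.CM, beside 32.6%, and for 3 of 16 with the antibody, beside 6.98%. The mitotic members with the lowest of these values for Wnt2 were Mki67 (1.81e-08) and Bub1 (7.46e-05) in the authors' deposited table, both higher, and Bub1b, Top2a and Kif11 were lower. With the antibody they were Kif11 (0.0037) and Nusap1 (0.00351), higher, and Mki67 (0.0207), lower, in the authors' deposited table. The S-phase counts in the authors' deposited table were 3, 6 and 0 of 17 for Wnt2, CAF.CM and the antibody. With 1 column a group, the sources used here do not say what dispersion lies behind those p-values, so they are reported as deposited.

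Genes around the members were described from 5 further lists. In the comparisons described below, where 5 or fewer genes of a list passed 2-fold in a direction, all are named, some of them after their values were seen. For CAF.CM + Wnt2 antibody over control medium the lists are given by count only, beside 8.10% of all genes higher and 12.6% lower. The replication, CDK inhibitor and G1 lists gave 2 higher and 3 lower each, of 44, 19 and 25 listed genes. The repair list gave 3 higher and 0 lower of 17. For CAF.CM + Wnt2 antibody over CAF.CM it gave 0 higher and 1 lower of 18, beside 1.02% and 3.65%. Of 57 other mitosis genes, 43 were listed for CAF.CM over control medium, of which 5 (11.6%) passed 2-fold higher and 1 (2.33%) lower, beside 6.68% and 8.69% of all genes, with a median log2 ratio of 0.20. Those higher were Melk, Mybl2, Hmmr, Cenpw and Pttg1, of which Hmmr and Mybl2 were under 1 CPM in control medium and were listed through the CAF.CM library. Cenpw, of the kinetochore, had 3.34 CPM with CAF.CM and 1.06 CPM in control medium, and Pttg1, the securin that restrains separase, had 25.1 CPM with CAF.CM and 11.9 CPM in control medium. Lower was Ncapg2, a condensin II subunit, at 8.07 CPM with CAF.CM and 18.2 CPM in control medium. With the antibody over CAF.CM 0 of 42 passed in either direction, and with the antibody over control medium 9 (21.4%) passed higher and 0 lower, beside 8.10% and 12.6% of all genes, with a median of 0.27. Of the 9, Hmmr was again under 1 CPM in control medium. Ndc80, at 1.02 CPM in control medium and 0.576 CPM with CAF.CM, had no antibody value and is not among these 42. Wnt2 gave 1 higher of 42, Ckap2l of the spindle at 2.70 CPM with Wnt2 against 1.31 CPM in control medium, and 1 lower, Ndc80 of the kinetochore, or 2.38% each way, near the 2.87% and 2.93% of all genes. The median of the 42 listed for Wnt2 over control medium was -0.0009, with 21 above 0 and 21 below, beside 47.0% of all genes above 0.

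Among 48 other DNA replication genes, 46 were listed for CAF.CM over control medium, and 1 (2.17%) passed higher and 4 (8.70%) lower, with a median log2 ratio of 0.01. The share lower was thus that of all genes, 8.69%, and the share higher was below their 6.68%. The lower genes were Gins1, Pole2, Dna2 and Timeless. The higher gene was Ccne2, cyclin E2, which drives entry into S phase, at 11.0 CPM with CAF.CM + Wnt2 antibody, 4.99 CPM with CAF.CM and 1.79 CPM in control medium. Dna2, a nuclease and helicase of fork and flap processing, lay lowest in the CAF.CM libraries, at 5.30 CPM with CAF.CM + Wnt2 antibody, 4.88 CPM with CAF.CM, 9.76 CPM with Wnt2 and 17.9 CPM in control medium. For Wnt2 over control medium 0 of 45 passed in either direction, beside 2.87% higher and 2.93% lower of all genes. With the antibody over CAF.CM 2 of 45 (4.44%) passed higher, Ccne2 and Mcm10, and 1 (2.22%) lower, Timeless. Over all genes these shares were 1.02% and 3.65%. Mcm10, at 0.922 CPM with CAF.CM, was listed through the antibody library, on 70 reads over both libraries. Timeless rested on 45 reads over both.

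CDK inhibitors and growth arrest genes (20, all listed) gave 2 higher, Cdkn1a and Gadd45b, and 2 lower, Cdkn1c and Klf4, for CAF.CM over control medium, or 10% each way, near the 6.68% and 8.69% of all genes. Cdkn1a, the p21 inhibitor of cyclin-dependent kinases, had 190.0 CPM with CAF.CM + Wnt2 antibody, 130.6 CPM with CAF.CM, 94.7 CPM with Wnt2 and 61.7 CPM in control medium. Gadd45b, a stress-induced growth arrest gene, had 31.1 CPM with CAF.CM + Wnt2 antibody, 24.5 CPM with CAF.CM and 6.94 CPM in control medium. Cdkn1a was thus higher in both CAF.CM libraries than in control medium. Cdkn1c and Klf4 were lower with CAF.CM, at log2 -1.15 and -1.22. Of the listed mitotic members 12 lay above 0 and 4 below for CAF.CM over control medium. With Wnt2 the passing genes were Btg1, an antiproliferative factor, at 1183 CPM against 589.9 CPM in control medium, and Cdkn1c, another CDK inhibitor, at 0.488 CPM against 1.82 CPM. That is 1 of 20 (5%) each way, beside 2.87% higher and 2.93% lower of all genes.

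Of the G1 cyclins, RB and E2F family (25 of 26 listed), 1 passed higher, Ccnd2, and 3 lower, Myc, E2f2 and E2f8, for CAF.CM over control medium, or 4% and 12%, near the 6.68% and 8.69% of all genes. For Wnt2 over control medium 0 passed higher and 2 (8%) lower, Ccnd1 and Myc, beside 2.87% and 2.93% of all genes. Ccnd2, cyclin D2, had 42.1 CPM with CAF.CM + Wnt2 antibody, 59.1 CPM with CAF.CM and 18.8 CPM in control medium. Myc, a growth-promoting transcription factor, had 0.776 CPM with CAF.CM + Wnt2 antibody, 1.11 CPM with CAF.CM, 2.05 CPM with Wnt2 and 4.79 CPM in control medium. Ccnd1, cyclin D1, passed lower with Wnt2, at 3.67 CPM against 11.4 CPM in control medium. Control medium was thus the highest library for Myc, and E2f2, an activating E2F, also lay lower, at 3.88 CPM with CAF.CM + Wnt2 antibody, 4.57 CPM with CAF.CM and 11.1 CPM in control medium.

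Replication stress and repair genes (17 of 26 listed) gave 3 higher, Brca1, Fanca and Rmi2, and 0 lower for CAF.CM over control medium, beside 6.68% and 8.69% of all genes, with a median log2 ratio of 0.25. Rmi2 was under 1 CPM in control medium and was listed through the CAF.CM library. Brca1, of homologous recombination, had 12.1 CPM with CAF.CM + Wnt2 antibody, 8.83 CPM with CAF.CM and 3.77 CPM in control medium. Fanca, of the crosslink repair pathway, had 20.5 CPM with CAF.CM against 9.21 CPM in control medium. For Wnt2 over control medium 0 of 17 passed 2-fold, beside 2.87% higher and 2.93% lower of all genes.

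**Figure D5:**
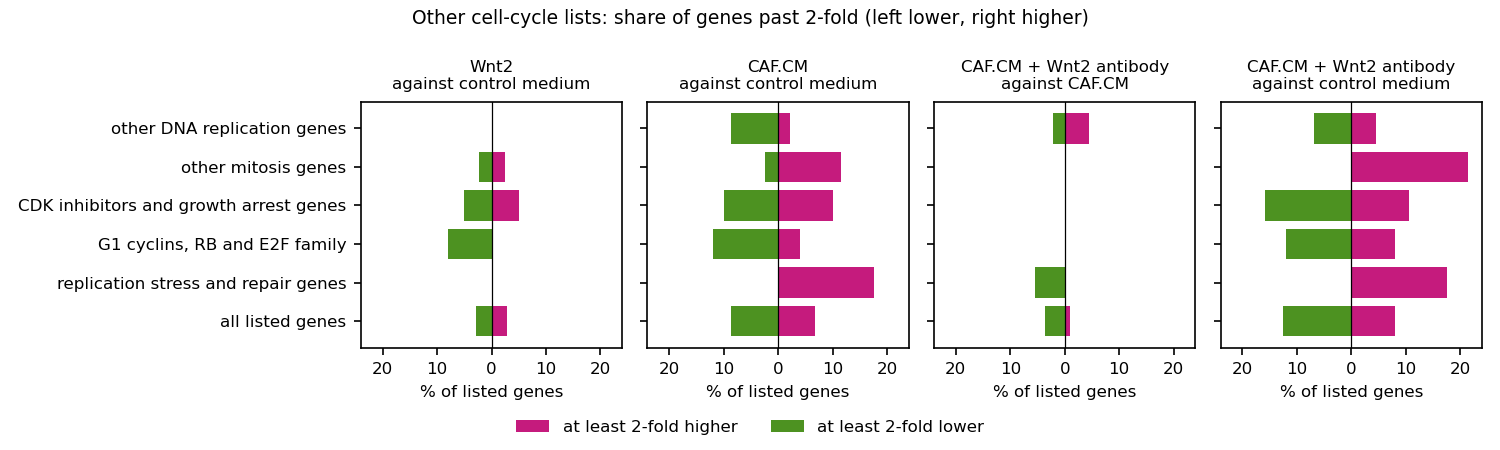
Share of listed genes (%) at least 2-fold higher (right of 0) or lower (left of 0) in 5 further cell-cycle lists and over all listed genes, by comparison. Other mitosis genes have 9 of 42 higher and 0 lower for CAF.CM + Wnt2 antibody over control medium, beside 8.10% and 12.6% of all genes.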

How the data were processed

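Ribosomal RNA was removed from 1 ug of total RNA of each of 4 cultures and a stranded Illumina kit was used, per the labels' protocols. Per the submitters' processing notes, the tools were STAR 2.4.2a, RSEM 1.2.29 and edgeR, on GRCm38.p5 or mm10. Their settings, and whether counting used the strand, are not stated there. The authors deposited CPM, scaled by effective library sizes and with 3 decimals, in 1 table per comparison. The log2 fold changes, p-values and adjusted p-values in those tables are the authors' deposited values. No column of per-sample values was left unmapped.

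The 4 groups come from the treatment label. All deposited CPM values worth 1 to 1000 reads were whole multiples of 1 step per library within 0.1 step, so reads were recovered. Libraries present in 2 tables were identical in both, for 12848 of 12848 genes (CAF.CM) and 12954 of 12954 genes (control medium), which allowed the antibody library to be set against control medium. Log2 ratios are edgeR 4.0.16 log2 CPM in R 4.3.3 on the authors' library sizes (prior count 2), over all genes listed for both libraries, with no read minimum. The computation was tested on simulated data. Intervals (scipy 1.17.1, Python 3.11.15) cover counting error only, and precision is lower in the shallow CAF.CM libraries. Per-kilobase levels, overlaps and shared words use GENCODE M21 (GRCm38), which matched 13661 of 13685 genes. Promoter windows are from RefSeq, GRCm38.p6.

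Values in every library are given for the 5 members per class with the most reads and, per comparison and class, the 3 largest ratios with at least 200 reads, and others by role. Up to 4 genes per further list follow the same read minimum. Members and lists were chosen with earlier results of these data known. Alternatives were DESeq2 1.42.0 size factors, total reads, TMM factors, prior counts of 0.5 and 5, a minimum of 100 reads, a 1.5-fold threshold and the authors' deposited fold changes. A minimum of 1 CPM in both libraries and the removal of members with shared or overlapping sequence were chosen after seeing the data.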

Additional observations from a re-analysis of the deposited data

How the results depend on the processing

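Under other scalings, prior counts, a read minimum and the authors' deposited fold changes, all members' ratios stayed within their counting intervals. The calls that changed were those of Tpx2 and Birc5 with CAF.CM over control medium and of Kif23 and Cdc20 with CAF.CM + Wnt2 antibody over CAF.CM, so that the mitotic members higher numbered 4 to 6 and 2 to 4 in these comparisons. With CAF.CM + Wnt2 antibody over control medium, the minimum of 100 reads removed Ccnb1 and left 7 of the 8 mitotic members higher. Signs turned for Rrm1 with Wnt2 over control medium, for Mcm6 with CAF.CM + Wnt2 antibody over CAF.CM, for Mki67 and Rrm2 with CAF.CM + Wnt2 antibody over control medium and for the S-phase medians of both antibody comparisons, all close to 0. A 1.5-fold threshold moved counts. The share of all genes past 1.5-fold is not given here. The counts at 1.5-fold therefore show only how the calls move, and are not read as a result about the members. For Wnt2 over control medium it gave 4 higher and 5 lower mitotic members and 1 higher and 3 lower S-phase members. For CAF.CM over control medium these were 11 and 1, and 2 and 2. For CAF.CM + Wnt2 antibody over CAF.CM it gave 5 higher and 1 lower mitotic members, and over control medium 3 lower S-phase members. Without members of shared or overlapping sequence, 0 S-phase members passed 2-fold lower in the 3 comparisons with control medium, since Pcna is left out, and 3 mitotic members passed higher with CAF.CM. With at least 1 CPM in both libraries, 0 S-phase members passed higher with CAF.CM or CAF.CM + Wnt2 antibody over control medium, since Cdc6 is left out, and 2 mitotic members passed higher with CAF.CM. Both removals turned the S-phase median for CAF.CM over control medium below 0, at -0.06 with the level minimum and -0.09 without shared sequence. These removals were chosen after seeing the data, and the shares of all genes under them are not given here. No paired analysis was possible because each group has 1 library and the labels give no replicate numbers, and no library could be left out. Low mitotic members rest on 13 to 65 reads in some libraries, where counting intervals are wide.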
